A study of Mus musculus with 12 samples.

Results

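The genes described here are 67 protein-coding genes of mouse chromosome 15 that come after Drosha in gene order and are held in a deposited expression table of 982 genes. Drosha, the nuclease that starts microRNA processing, marks the boundary, and positions were read from the GENCODE M21 annotation of the deposited Ensembl identifiers. Of the 94 deposited genes on the chromosome, 10 lie up to and including Drosha and 84 lie after it. From those 84, 17 were left out by name, among them Myc, Pvt1, Krt8, Krt18, Cbx5 and symbols of the transporter, zinc finger, ribosomal protein, predicted and Rik families. Under the same rule the annotation holds 613 protein-coding genes, so the members are only a part of them. The set was chosen from measured values as well as from position, because earlier results of these data showed chromosome 15 genes higher in 1 edited line, sg1. Differences of sg1 from the other lines are therefore given as a description without a test.

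RNA sequencing was performed on 6DT1, a mouse mammary cancer cell line that arose in a MMTV-Myc tumor, to ask how transcription responds when Resf1, the gene for retroelement silencing factor 1, is disrupted. The labels give 4 groups of 3 libraries. The sgControl group carries the genotype label wild type and the treatment label sgScranble control, and the sg1, sg2 and sg3 groups carry the genotype label Resf1 KO and the treatment label sgResf1 CRISPR KO. All 4 groups were grown in medium with puromycin. Per the methods of the study, a lentivirus delivered Cas9 and guide, and the edited cells were sorted and plated one by one. Each edited line thus stands for 1 clone, and the guide and the clone that carries it cannot be told apart. The 3 libraries of a group are dishes seeded in parallel, so p-values measure only the spread between dishes. The treatment protocol in the labels describes short hairpin RNAs, which is not the treatment named for these libraries.

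Chromosome 15 of the mouse carries the proto-oncogene Myc and, beyond it, a mix of genes with no shared task. Adhesion and matrix genes, cytoskeletal genes, the Ly6 cluster of membrane-anchored surface proteins, metabolic enzymes and transcription regulators follow each other along it. Position on the chromosome is what the members have in common, and each member is its own transcription unit. The libraries measured RNA, and DNA copies were not measured. In bulk RNA, fewer cells of a type and less RNA per cell cannot be told apart.

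The values are normalized counts, that is, estimated reads of a gene divided by a size factor of its library. Sums over the 982 genes ran from 2069298 to 2713951 per library, which is part of a library and not its depth. No pair of replicates was a duplicate, with a chi-square over its degrees of freedom no lower than 12.96. Between replicates, the members varied by a median log2 standard deviation of 0.07 for sgControl, 0.05 for sg1, 0.07 for sg2 and 0.09 for sg3. Resf1 itself was not analysed here. Of 6 mammary epithelial markers, 3 were in the table, and the sum of Krt8, Krt18 and Krt19 reached 22937 to 25215 normalized counts in the sg1 libraries and 9460.5 to 12775 in the other 9. Krt8 and Krt18 are themselves among the distal chromosome 15 genes left out by name. Of 9 fibroblast, leukocyte and endothelial markers, only Cd68 was in the table, with 283 to 327 in the sg1 libraries, against 102 to 154 (sgControl), 154 to 169 (sg2) and 139 to 159 (sg3). The part of these differences in the results below was not tested.

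Members spanned a wide range of expression. Their sgControl means ran from 73.1 normalized counts for Ccn3 to 44311 for Plec, with a median of 1769. Per kilobase of the longest annotated transcript, the range was 21.6 to 3225 and the median 398. A mean of at least 50 over all libraries was reached by 66 of the 67, the exception being Ccn3.

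Promoter windows from RefSeq (build GRCm38.p6) matched 37 of the 67 members by symbol, none of the first 17 in gene order (Fzd6 to Ptk2) and 37 of the other 50, and the 250 bases before the start were searched. The 6-base E-box CACGTG, the textbook binding sequence of MYC and its partner MAX, reads the same on both strands and was present in 11 of these 37 members (29.7%). It was found in 12.7% of the 702 deposited genes with a window and in 6.86% of all 27025 genes with a window. The second search was for 4 runs of GGG separated by 1 to 7 bases, or the same with CCC for the other strand, a common pattern of sequences from which G-quadruplexes can form. The study proposes that RESF1 is mainly associated with predicted quadruplexes of transcribed sequence. Transcribed sequence was not searched here, so these windows do not bear on where RESF1 binds. Such runs were in 16 of the 37 members (43.2%), in 31.9% of the deposited genes and in 18.4% of all genes. A match is a description of these letters and not of a bound site. Of the 53 windows of the members, 50 were followed by bases found in a GENCODE transcript of the gene. The only E-box window of Tnrc6b and the only run window of Pfkm were not, and both were counted. Windows of 4 members on which the results turn are printed 5′ to 3′ on the strand of the gene. The motif CACGTG is in capitals for Foxred2 (higher in every edited line, least in sg3), Fbln1 (the highest difference in sg1) and Mapk12 (the lowest), and the matches to the GGG or CCC runs are in capitals for Amigo2 (higher in every edited line).
Foxred2, chr15:77956723-77956972, minus strand: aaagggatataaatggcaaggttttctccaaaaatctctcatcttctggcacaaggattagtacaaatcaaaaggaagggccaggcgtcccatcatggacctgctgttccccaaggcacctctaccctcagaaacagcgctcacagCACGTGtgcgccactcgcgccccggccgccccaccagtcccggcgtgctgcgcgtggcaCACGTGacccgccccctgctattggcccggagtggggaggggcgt
Fbln1, chr15:85205699-85205948, plus strand: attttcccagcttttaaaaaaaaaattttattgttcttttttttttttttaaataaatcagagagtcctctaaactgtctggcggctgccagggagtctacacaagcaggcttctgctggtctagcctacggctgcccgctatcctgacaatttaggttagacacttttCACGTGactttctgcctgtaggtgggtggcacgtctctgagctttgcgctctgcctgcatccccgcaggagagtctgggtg
Mapk12, chr15:89140704-89140953, minus strand: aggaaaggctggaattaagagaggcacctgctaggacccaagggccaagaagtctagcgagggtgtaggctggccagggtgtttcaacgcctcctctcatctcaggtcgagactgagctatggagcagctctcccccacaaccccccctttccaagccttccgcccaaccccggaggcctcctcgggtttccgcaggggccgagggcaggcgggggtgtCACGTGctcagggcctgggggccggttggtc
Amigo2, chr15:97247288-97247537, minus strand: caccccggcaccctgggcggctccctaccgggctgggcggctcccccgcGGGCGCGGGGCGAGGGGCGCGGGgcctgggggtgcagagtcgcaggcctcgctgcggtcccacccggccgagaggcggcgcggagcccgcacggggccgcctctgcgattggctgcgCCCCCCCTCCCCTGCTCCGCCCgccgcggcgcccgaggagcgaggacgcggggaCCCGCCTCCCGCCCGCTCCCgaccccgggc
The Foxred2 window holds 2 E-boxes, the Fbln1 and Mapk12 windows hold 1 each, and the Amigo2 window holds 3 stretches of runs on either strand and no E-box. Fbln1 and Mapk12, which both hold an E-box, moved in opposite directions in sg1.

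In sg1, the members as a group were higher than in sgControl. The 3 sg1 libraries lay above all 3 sgControl libraries for 62 of the 67 members, against 49.9% of all genes in the table. They lay below all 3 for Ccn3, Fzd6, Mapk12 and Tst, against 39.7% of all genes, and overlapped for Kctd17. For 59 members, the 3 sg1 libraries exceeded all 9 libraries of the other groups, where 33.4% of the table did so. Since the set was chosen on this difference, nothing is read from the shares. How the 982 genes came to be in the table is not known, and members may be there through sg1 alone. Shares of members that pass a test in sg2, in sg3 or between them may be lower for that reason. They are not read as a weaker response of the members. The median log2 difference of sg1 to sgControl was 0.61 over the members, or 1.53-fold, with quartiles of 0.51 and 0.79. Over all 982 genes it was 0.20, and over the 888 genes not placed on chromosome 15 it was 0.12.

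Each library showed the group value. Against the sgControl mean, the median over the members was 0.61, 0.63 and 0.62 in the 3 sg1 libraries, 0.04, 0.04 and 0.05 in the sg2 libraries and -0.01, 0.04 and 0.03 in the sg3 libraries. The sg1 libraries were thus the only ones of the 12 with a median above 0.05. Relative to the mean of sg2 and sg3, the median in sg1 was 0.62, and 66 of 67 members were higher in sg1, the exception being Mapk12.

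**Figure D1:**
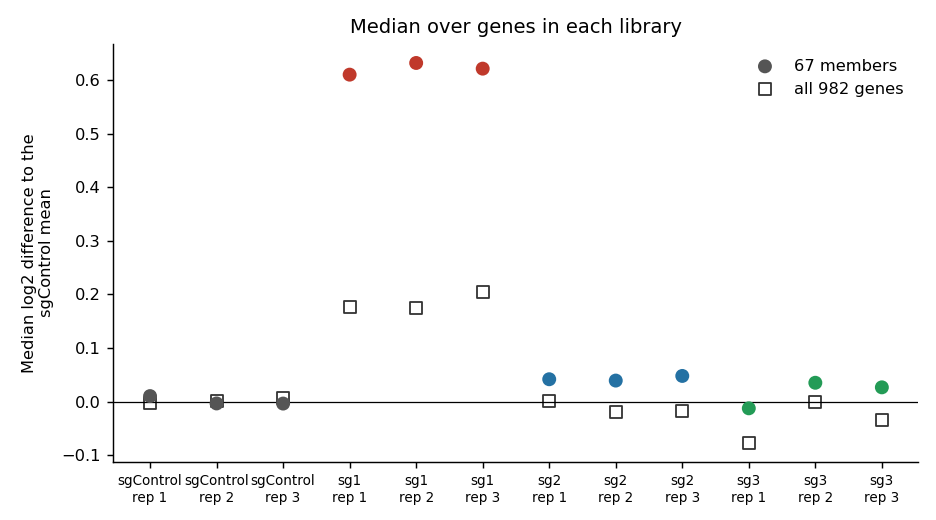
Median log2 difference to the sgControl mean (y axis) in each of the 12 libraries (x axis), over the 67 members (filled circles, colored by group) and over all 982 genes (open squares). The members' medians sit at 0.61 to 0.63 in the sg1 libraries and between -0.01 and 0.05 in the other 9.

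The sg1 difference fell between 0.3 and 0.9 on the log2 scale for 49 members (73.1%). This band was placed around the members' own median, so nothing is read from the 28.2% of all genes that it held. Between 0 and 0.3 there was no member. Genes of the same stretch that are absent from the table were not seen, so this gap holds only for the deposited genes. Above 0.9 were 13 members, named Ext1, Mtss1, Them6, Ly6a, Myh9, Foxred2, H1f0, Mgat3, Fbln1, Amigo2, Aqp5, Itgb7 and Calcoco1. Below 0 were Fzd6, Ccn3, Tst, Kctd17 and Mapk12.

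**Figure D2:**
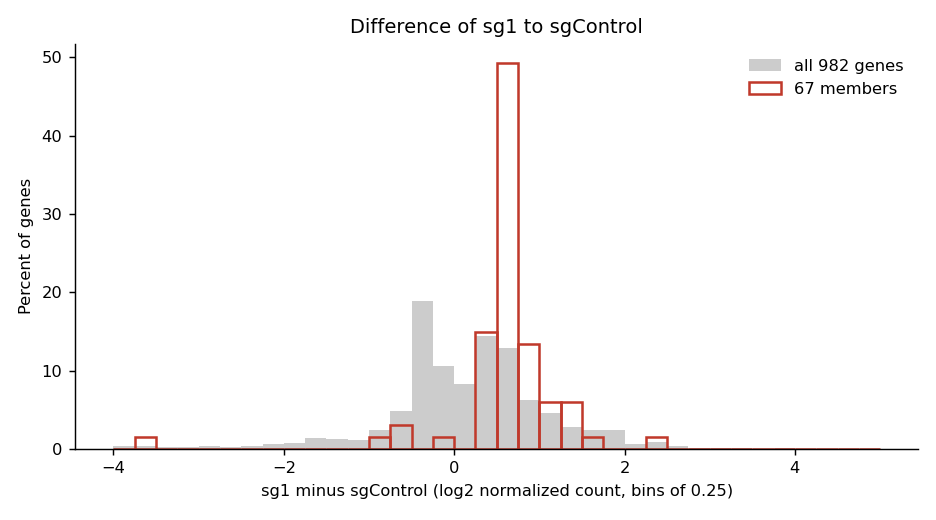
Share of genes (y axis, percent) in bins of 0.25 of the log2 difference of sg1 to sgControl (x axis), for the 67 members (red outline) and all 982 genes (grey); 7 genes of the table lie outside the axis. Most members fall in the bins from 0.25 to 1, with Mapk12 at -3.64 and Fbln1 at 2.42 as the extremes.

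Expression at the boundary was compared gene by gene. Drosha, the last gene outside the set, was at 2781, 2894 and 2747 (sgControl), 2881, 3124 and 2937 (sg1), 2025, 2107 and 2058 (sg2) and 2279, 2414 and 2151 (sg3). The sg1 libraries overlapped the sgControl libraries there, and all sg2 and sg3 libraries were lower. Drosha differed from sgControl by -0.44 on the log2 scale in sg2 (adjusted p = 2.34e-06) and by -0.30 in sg3 (adjusted p = 1.65e-04) by limma. Golph3 and 6030458C11Rik, the next deposited genes on that side, had sg1 differences of 0.22 and 0.10. Over the 10 genes up to Drosha, the median difference was 0.07 for sg1, -0.41 for sg2 and -0.32 for sg3. The first deposited gene beyond Drosha is G930009F23Rik, left out by its name, at 54.0, 53.5 and 52.4 in sgControl and 164, 155 and 150.3 in sg1.

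Fzd6, a frizzled receptor for Wnt ligands, is the first member. Its values were 566, 491 and 548 (sgControl), 334, 298 and 316 (sg1), 369, 302 and 368 (sg2) and 256, 322 and 280.1 (sg3). All 9 libraries of the edited lines lay below the 3 sgControl libraries, so the member nearest the boundary was lower in each edited line. In the annotation Drosha starts at 12.8 megabases and Fzd6 at 39.0 megabases, so Fzd6 is not a close neighbour of Drosha. The last 2 members were higher in sg1. Atf7, a cyclic AMP response element binding family transcription factor, was at 2099, 2008 and 2122 in sgControl and 3086, 3032 and 2961 in sg1. Calcoco1, a receptor for autophagy of the endoplasmic reticulum, was at 325, 303 and 366 in sgControl and 599.7, 678 and 621 in sg1.

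Along the chromosome, the members were divided into 4 blocks of neighbours, and the second block had the highest median in sg1. The 17 members from Fzd6 to Ptk2 had a median difference of 0.54, the 17 from Them6 to Mgat3 of 0.80, the 17 from Tnrc6b to Ccnt1 of 0.57 and the 16 from Fkbp11 to Calcoco1 of 0.61. The second block also had the widest quartiles, from 0.69 to 1.17, and its lower quartile lay above the upper quartiles of the first (0.65) and the third (0.65). Its members include the Ly6 genes, Myh9, Foxred2, H1f0 and Mgat3. In sg2 the block medians were 0.07, 0.06, 0.05 and -0.01, and in sg3 they were 0.05, -0.00, 0.05 and 0.00. For the 17 distal genes left out by name, the sg1 median was 0.72.

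**Figure D3:**
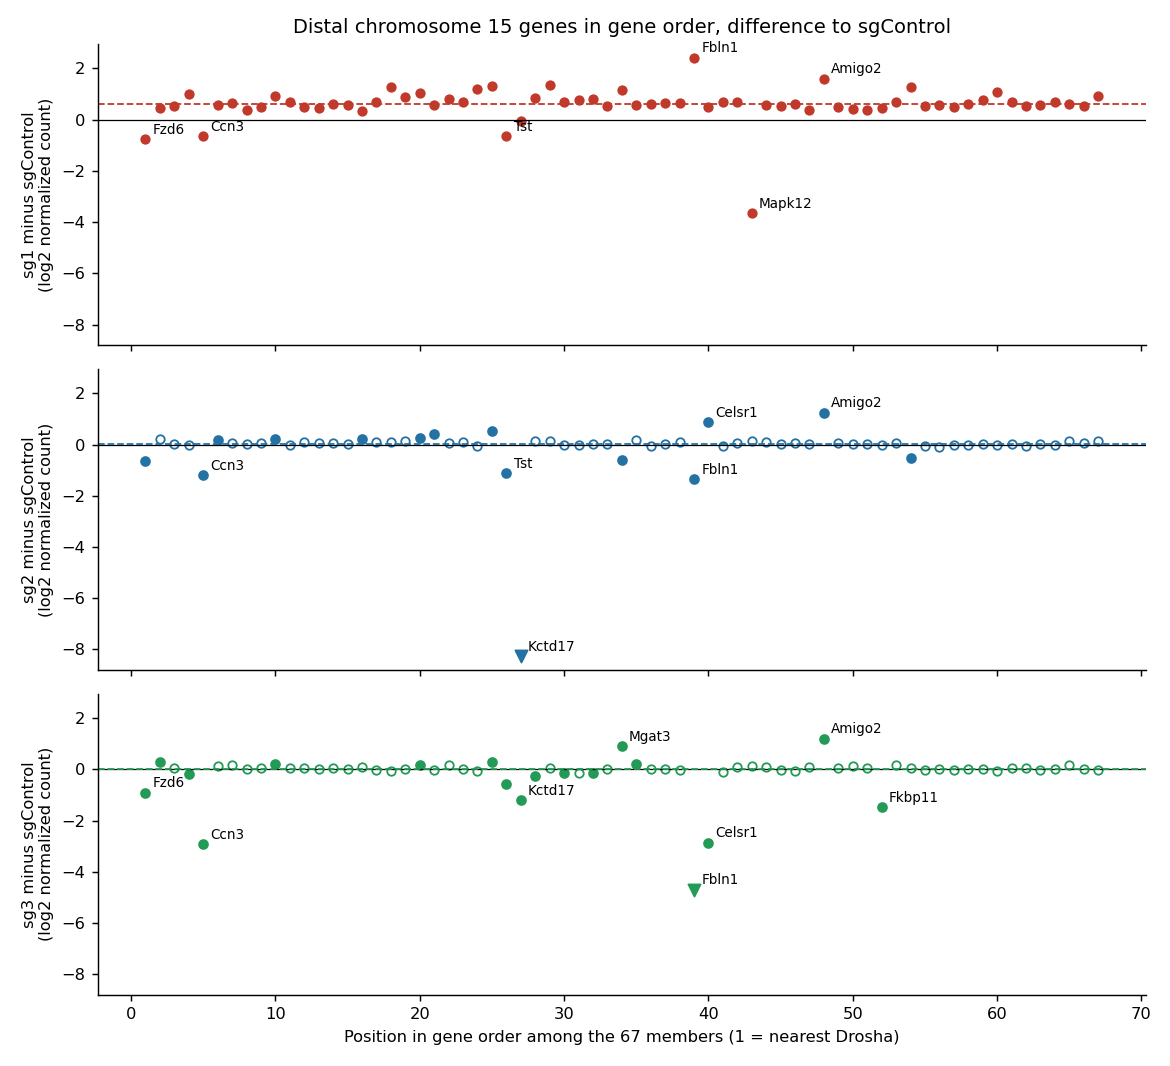
Log2 difference to sgControl (y axis) of each member in gene order (x axis) in sg1, sg2 and sg3, with the median as a dashed line. Filled points in the lower panels have a limma adjusted p of at most 0.05, and open points do not. Triangles for Kctd17 in sg2 and Fbln1 in sg3 mark bounds, with the difference at or below them. Most sg1 points lie above 0 over the whole length, those from Them6 to Mgat3 with the highest median of the 4 blocks (0.80), and the sg2 and sg3 points lie near 0 with single genes far off.

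The members furthest from the band in sg1 were Fbln1 and Mapk12. Fbln1, which encodes the extracellular matrix glycoprotein fibulin-1, was at 83.5, 75.3 and 78.2 (sgControl), 375, 435 and 477 (sg1), 26.1, 33.9 and 31.4 (sg2) and 3.49, 0.963 and 2.74 (sg3). No group overlapped another, and the order from highest to lowest was sg1, sgControl, sg2 and sg3. Mapk12, the p38 gamma kinase, was at 155, 139 and 173 (sgControl), 8.51, 14.5 and 12.2 (sg1), 140.0, 178 and 204 (sg2) and 148, 185 and 183 (sg3). All 3 sg1 libraries were far below the other 9, which overlapped. Its sg1 mean was 13.3-fold lower than in sgControl, and its sg2 and sg3 values did not pass the test (adjusted p = 0.487 and 0.515 by limma).

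Of the other members above 0.9, 5 are described next. Myh9, the heavy chain of non-muscle myosin IIA, was at 12513, 12637 and 11187 (sgControl), 27923, 30217 and 25873 (sg1), 11851, 11510.1 and 11123 (sg2) and 11725, 11899 and 11250.1 (sg3). H1f0, the linker histone H1.0 of non-dividing and differentiating cells, was at 872, 756 and 998 (sgControl), 2285, 2163 and 2289 (sg1), 1091, 909 and 922 (sg2) and 813, 981 and 894 (sg3). For both genes the 3 sg1 libraries lay above the other 9, which overlapped. Ext1, a glycosyltransferase that extends heparan sulfate, was at 535, 611 and 541 (sgControl), 1119.7, 1139 and 1105 (sg1), 560.0, 567 and 542 (sg2) and 513, 512 and 474 (sg3). Its sg1 libraries were highest and its sg3 libraries lowest, with a fall in sg3 (log2 difference -0.17, SE 0.07, adjusted p = 0.0377) that was lost without sgControl replicate 2, sg1 replicate 1 or sg3 replicate 3, and with a median of ratios over genes not on chromosome 15. Them6 was at 287, 325 and 256 in sgControl and 724, 767 and 622 in sg1. Itgb7, an integrin beta subunit, was at 1351, 1659 and 1538 in sgControl and 3040.1, 3332 and 3134 in sg1. In fold terms the sg1 means of these genes were 2.31 (Myh9), 2.57 (H1f0), 1.99 (Ext1), 2.43 (Them6) and 2.09 (Itgb7) times the sgControl mean. Of the 5, Ext1 alone passed a test in sg2, in sg3 or between sg3 and sg2, where 59.7%, 59.9% and 30.5% of all genes passed.

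When grouped by function, 54 members were on 9 lists and 13 on none. The direction in sg1 was shared within most lists. Among cell cycle and chromosome genes, all 4 members were higher in sg1, with a median difference of 0.54. They were Rad21, a cohesin subunit (0.54), Atad2, a bromodomain ATPase (0.65), Racgap1, which acts in cytokinesis (0.54), and Ccnt1, the cyclin of the elongation kinase P-TEFb (0.37). None of the 4 passed the test in sg2, in sg3 or between sg3 and sg2, where 59.7%, 59.9% and 30.5% of all genes passed. All 6 chromatin and transcription regulators were higher in sg1 (median 0.51), among them Trps1, a GATA-type repressor (0.44), Tcf20, a coregulator (0.64), Arid2, a subunit of the PBAF remodeling complex (0.37), and the retinoic acid receptor Rarg (0.70). In sg3, Trps1 rose (log2 difference 0.28, SE 0.11, adjusted p = 0.0469), and no other member of this list passed in any tested comparison. The Trps1 call was lost with a median of ratios over all genes and with the table total, and with the replicate number as a block Trps1 also passed in sg2 (adjusted p = 0.00308).

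The 4 RNA genes had a median of 0.59 in sg1. Ago2, the slicer argonaute, had the smallest difference of any member that was higher (0.35), and Tnrc6b, its silencing partner (0.57), Dazap2 (0.61) and Zc3h7b (0.61) were close to the median of all members. Ago2 rose in sg2 (log2 difference 0.23, SE 0.08, adjusted p = 0.0213), and Tnrc6b rose in sg3 (log2 difference 0.21, SE 0.08, adjusted p = 0.0307). Both calls were lost with a median of ratios over all genes, with the table total and with neither intensity trend nor robust spread. Leaving out some single libraries also cost both genes their calls. The 6 cytoskeletal genes had a sg1 median of 0.65, and none passed the test in sg2, in sg3 or between them, beside 59.7%, 59.9% and 30.5% of all genes. In order of mean count, the 6 were led by Myh9, followed by the actin-binding Lima1 (0.59), the alpha-tubulin Tuba1a (0.70) and the Rac1-binding Fam49b (0.51). The sg1 difference was 0.78 for Sun2 and 0.52 for Twf1. Reads of Tuba1a may be shared with near-identical tubulin genes, and its value is uncertain for that reason. All 6 genes of vesicle traffic and protein handling were higher in sg1 with a median of 0.51, among them Fam91a1 (0.39), the SUMO protease Senp1 (0.51), Gramd4 (0.68) and the membrane ubiquitin ligase Rnf139 (0.51). Only Fkbp11 of this list passed a test in sg3, where 59.9% of all genes did, and none passed in sg2, where 59.7% did.

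All 6 immune and Ly6 genes were higher in sg1, with a median of 0.82. Ly6a, the surface protein also known as Sca-1, was at 1100.4, 992 and 965 (sgControl), 1972, 2077 and 2219.8 (sg1), 1238, 1184 and 1206 (sg2) and 1018, 1229 and 1243 (sg3). The sg1 libraries were all above the rest, whereas the sg3 range overlapped sgControl. The others were Ly6e (0.89), Cyth4, an exchange factor for Arf proteins (0.83), Ly6c1 (0.58), Gsdmd, the pore-forming protein of pyroptosis (0.80), and Apobec3, an antiviral deaminase (0.53). Ly6a and Ly6c1 have close paralogs on the same chromosome, so their reads may be split among copies. In sg2, 2 of the 6 rose and none fell, where 30.2% of all genes rose and 29.4% fell. In sg3, 1 rose and 1 fell, where 26.5% of all genes rose and 33.4% fell.

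Of the 11 adhesion and matrix genes, 10 were higher in sg1, with a median of 0.77. The most abundant were Plec, the cytolinker plectin (0.69), Ptk2, the focal adhesion kinase (0.68), the tensin Tns2 (0.77) and Asap1, a regulator of Arf proteins at focal adhesions (0.45). Of these 11, the longest of the lists, 5 passed in sg2 (3 rose and 2 fell) and 6 in sg3 (2 rose and 4 fell), beside the 59.7% and 59.9% of all genes that passed. In sg3 against sg2, 4 were lower, where 17.1% of all genes were. Of the 7 metabolic genes, 6 were higher in sg1 (median 0.65), including the reductase Cyb5r3 (0.65), the sialyltransferase St3gal1 (0.58), the glycolytic Pfkm (0.41) and the ceramide kinase Cerk (0.71). Tst was the exception (-0.64). In sg2, 1 of the 7 rose and 2 fell, and in sg3, 2 rose and 1 fell, again beside 59.7% and 59.9% of all genes that passed. The 4 signaling genes were divided, with Deptor, an inhibitor of mTOR (0.58), and Map3k12 (0.60) higher and Fzd6 (-0.76) and Mapk12 (-3.64) lower. Across the 9 lists, the median difference ran from -0.01 to 0.15 in sg2 and from -0.02 to 0.13 in sg3, beside table medians of -0.02 and -0.03.

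The sg1 difference on which the members were chosen was taken against sgControl, and the same sgControl libraries enter the comparisons of sg2 and sg3 with sgControl. Members may also be in the table through sg1 alone, so nothing is read from lower shares of calls here and in the comparisons that follow. First, sg2 was compared with sgControl by limma across all 982 genes. A total of 15 of 67 members (22.4%) had an adjusted p of at most 0.05, against 59.7% of all genes. Of these, 8 rose and 7 fell, where 30.2% of the table rose and 29.4% fell. The median difference over the members was 0.04, and over the table it was -0.02. The share of calls depended on the scaling. With the total of the table as the scale, 4 rose and 20 fell, beside 61.7% of all genes that passed. With a median of ratios over genes not on chromosome 15, 14 rose and 7 fell, beside 57.6% of all genes that passed. With the replicate number as a block, 18 members passed, beside 68.3% of all genes. In that limma fit Trps1 (adjusted p = 0.00308), Ptk2 (adjusted p = 0.0185) and Cyb5r3 (adjusted p = 0.0401) were added to the same 15.

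Kctd17, a potassium channel tetramerization domain protein that can serve as an adaptor of a ubiquitin ligase, had the lowest value in sg2. Its values were 866, 879 and 938 (sgControl), 895, 935 and 785 (sg1), 1.04, 2.99 and 0.871 (sg2) and 347, 430.3 and 391 (sg3). The sg2 libraries correspond to 1, 3 and 1 estimated reads, so sgControl was at least 307-fold higher and sg3 at least 134-fold higher, taking 3 reads per library as the floor. The sg1 and sgControl libraries overlapped, and sg3 was below both (log2 difference -1.20, SE 0.20, adjusted p = 1.45e-04).

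The other members that fell in sg2 were Fbln1 (log2 difference -1.35, SE 0.26, adjusted p = 2.90e-04), Ccn3 (log2 difference -1.20, SE 0.26, adjusted p = 0.00107), Tst (log2 difference -1.12, SE 0.19, adjusted p = 1.25e-04), Fzd6 (log2 difference -0.63, SE 0.10, adjusted p = 6.72e-05), Mgat3 (log2 difference -0.62, SE 0.17, adjusted p = 0.00511) and Aqp5 (log2 difference -0.53, SE 0.07, adjusted p = 6.37e-06). Ccn3, a secreted matricellular protein, was at 66.8, 75.3 and 77.2 (sgControl), 62.7, 38.8 and 40.9 (sg1), 34.5, 38.8 and 22.7 (sg2) and 9.31, 6.74 and 10.9 (sg3). Every edited library lay below the sgControl libraries, with sg3 lowest, and the sg1 and sg2 libraries met at 38.8. Tst, the thiosulfate sulfurtransferase rhodanese, was at 91.4, 104 and 86.8 (sgControl), 78.7, 54.3 and 49.7 (sg1), 35.5, 51.8 and 41.8 (sg2) and 59.4, 63.5 and 67.5 (sg3). It was likewise below sgControl in all 9 edited libraries, with the lowest mean in sg2. Aqp5, a water channel of secretory epithelia, was at 450.0, 477 and 440.4 (sgControl), 1017, 1163 and 1115 (sg1), 306, 322 and 317 (sg2) and 459.7, 465 and 482 (sg3). Its groups separated into sg1 above, sg2 below, and sgControl and sg3 overlapping between them.

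Among the members that rose in sg2, Amigo2 moved most (log2 difference 1.25, SE 0.08, adjusted p = 5.99e-10). This immunoglobulin-like adhesion protein was at 242, 259 and 234 (sgControl), 729, 755 and 749 (sg1), 546, 588 and 614 (sg2) and 502, 606 and 585 (sg3). All 9 edited libraries lay above sgControl, with sg1 highest and the sg2 and sg3 libraries overlapping. Celsr1, an atypical cadherin of planar cell polarity, rose as well (log2 difference 0.87, SE 0.11, adjusted p = 6.29e-06). Foxred2, an oxidoreductase of endoplasmic reticulum-associated degradation, followed (log2 difference 0.55, SE 0.11, adjusted p = 3.38e-04) with 326, 263 and 344 (sgControl), 783, 813 and 735 (sg1), 439, 433 and 487 (sg2) and 345, 439 and 353 (sg3). For Foxred2 the sg1 libraries were highest and the sg2 libraries all lay above sgControl, while the lowest sg3 library was level with the highest sgControl library. Ly6c1 (log2 difference 0.42, SE 0.10, adjusted p = 0.00161) and Ly6a (log2 difference 0.25, SE 0.08, adjusted p = 0.0108) came next, and Mtss1, Ago2 and Deptor rose by 0.24, 0.23 and 0.16; with the total of the table as the scale, Deptor turned to -0.04 and Ly6a, Mtss1 and Ago2 no longer passed. Leaving out single libraries also cost Deptor, Mtss1 and Ago2 their calls, and the other 12 passed with any library left out.

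In sg3 against sgControl, 18 members (26.9%) passed, against 59.9% of all genes. Of these, 7 rose and 11 fell, where 26.5% of the table rose and 33.4% fell. The median over the members was 0.02 and over the table -0.03. Direction again moved with the scaling. With a median of ratios over genes not on chromosome 15, 20 rose and 8 fell, beside 57.7% of all genes that passed. With a median of ratios over all genes, 5 rose and 12 fell, beside 61.5% that passed. With the total of the table, 2 rose and 12 fell, beside 52.9% that passed. Without sgControl replicate 2, 9 members passed, beside 49.7% of all genes. Of the 9, Mgat3 and Amigo2 were higher and Fbln1, Ccn3, Celsr1, Fkbp11, Kctd17, Fzd6 and Cyth4 lower. The sg2 and sg3 comparisons share their 3 sgControl libraries and are given side by side.

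Fbln1 was at the floor in sg3, at 3, 1 and 3 estimated reads, so that sgControl was at least 26.0-fold higher and sg2 at least 10.0-fold higher. Celsr1 was at 599, 533 and 576 (sgControl), 841, 816 and 745 (sg1), 1044, 1089 and 997 (sg2) and 75.7, 96.3 and 63.0 (sg3). It thus rose in sg2 and fell in sg3 (log2 difference -2.87, SE 0.11, adjusted p = 5.85e-13), with no overlap between any pair of groups. Ccn3 fell in sg3 (log2 difference -2.91, SE 0.26, adjusted p = 6.75e-08). Fkbp11, a peptidyl-prolyl isomerase of the secretory pathway, was at 209, 203 and 229.7 (sgControl), 295, 285 and 306 (sg1), 218, 214 and 199.6 (sg2) and 71.0, 67.4 and 92.2 (sg3). It fell in sg3 (log2 difference -1.48, SE 0.12, adjusted p = 1.41e-08) while the sg2 libraries overlapped sgControl. Fzd6 (log2 difference -0.90, SE 0.10, adjusted p = 1.20e-06) and Tst (log2 difference -0.56, SE 0.19, adjusted p = 0.0213) were also lower, and Cyth4, Ext1, Nptxr and Tmem184b fell by no more than 0.27 on the log2 scale. The calls of Ext1, Nptxr and Tmem184b were lost with a median of ratios over genes not on chromosome 15. Those of Nptxr and Tmem184b were also lost with neither intensity trend nor robust spread and without sgControl replicate 1 or 2 or sg3 replicate 1 or 3, and that of Tst without sgControl replicate 2 or sg3 replicate 1.

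Amigo2 rose in sg3 by about as much as in sg2 (log2 difference 1.20, SE 0.08, adjusted p = 9.77e-10). Mgat3, which adds the bisecting N-acetylglucosamine to N-glycans, rose in sg3 (log2 difference 0.90, SE 0.17, adjusted p = 2.91e-04) and had fallen in sg2, with 220.1, 162 and 259 (sgControl), 482, 459.7 and 485 (sg1), 151, 109 and 154 (sg2) and 322, 456 and 415 (sg3). The sg2 libraries were all below sgControl and the sg3 libraries all above it. Foxred2 (log2 difference 0.28, SE 0.11, adjusted p = 0.0286), Trps1, Mtss1 (log2 difference 0.21, SE 0.08, adjusted p = 0.0284), Tnrc6b and Ly6a (log2 difference 0.19, SE 0.08, adjusted p = 0.042) completed the members that rose. All of these but Amigo2 and Mgat3 lost their calls without sgControl replicate 2, with the table total as the scale and with neither intensity trend nor robust spread. Tnrc6b and Trps1 also lost theirs with a median of ratios over all genes, and Trps1 did so without any of 6 other single libraries.

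**Figure D4:**
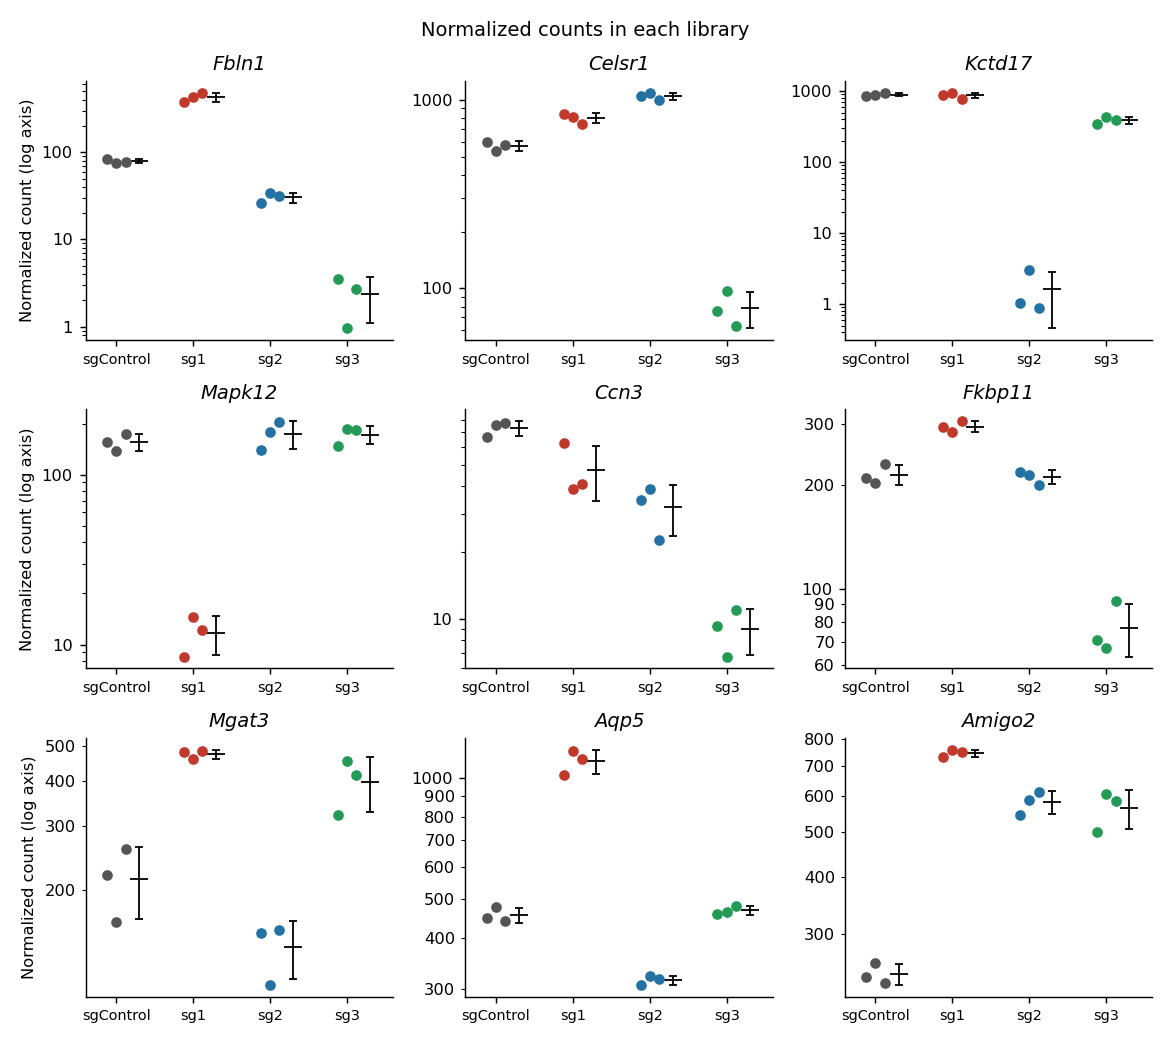
Normalized counts (y axis, log scale, a separate range in each panel) of 9 members in the 12 libraries (points, x axis by group), with the mean and SD of each group of 3 beside them. Fbln1 and Mapk12 are the extremes in sg1, Kctd17 is near 1 in sg2, and Celsr1, Fkbp11 and Fbln1 are lowest in sg3.

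The difference of sg3 to sg2 is set by the 6 libraries of these lines, while its error and adjusted p take the spread of all 12. Here 12 members (17.9%) passed, against 30.5% of all genes. Of these, 4 were higher in sg3, where 13.4% of the table was, and 8 were lower, where 17.1% was. Celsr1 had the largest fall of the members above the floor, with a sg2 mean 13.3 times the sg3 mean (log2 difference -3.74, SE 0.11, adjusted p = 1.00e-14). Lower in sg3 were also Ccn3 (log2 difference -1.71, SE 0.26, adjusted p = 4.53e-05), Fkbp11 (log2 difference -1.46, SE 0.12, adjusted p = 1.66e-08), Ly6c1 (log2 difference -0.43, SE 0.10, adjusted p = 0.00225), Cyth4 (log2 difference -0.39, SE 0.06, adjusted p = 6.06e-05) and, by less than 0.2, Nptxr and Ptk2, besides Fbln1 at its floor. Higher in sg3 were Mgat3 (log2 difference 1.52, SE 0.17, adjusted p = 9.70e-07), Aqp5 (log2 difference 0.57, SE 0.07, adjusted p = 2.45e-06) and Tst (log2 difference 0.56, SE 0.19, adjusted p = 0.0344), besides Kctd17. The Tst call was lost when any of 5 of the 6 libraries was left out, Ptk2 and Nptxr also lost theirs, and the other 9 passed with any library left out. Under each of the 3 other scalings Ptk2 did not pass, and with the table total Nptxr did not either.

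**Figure D5:**
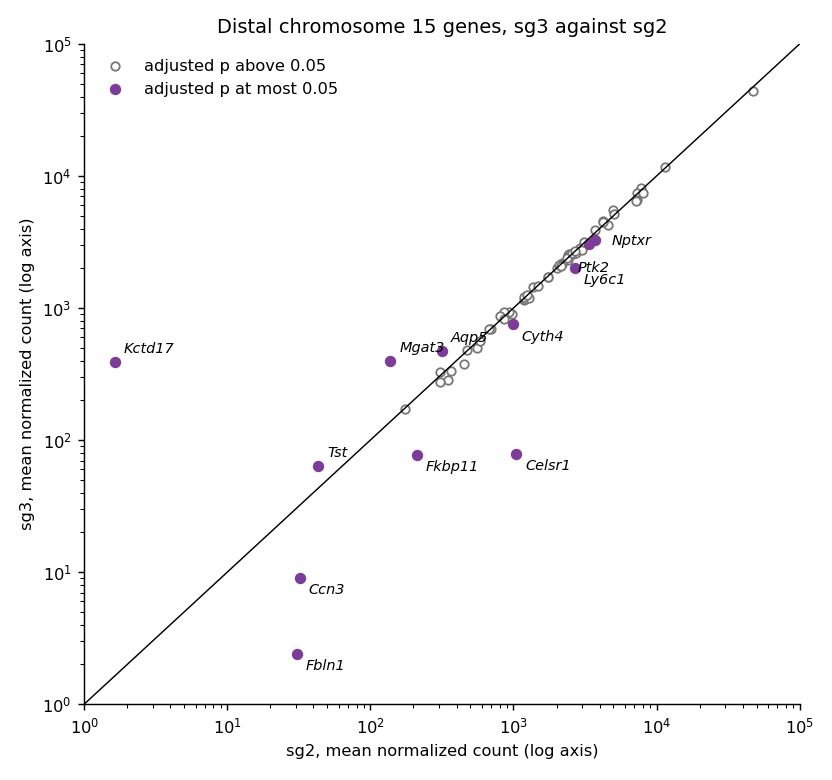
Mean normalized count in sg2 (x axis, log scale) against sg3 (y axis, log scale) for the 67 members; the line marks equal values, and filled points have a limma adjusted p of at most 0.05 over all 982 genes. Most members lie on the line, Kctd17, Mgat3, Aqp5 and Tst lie above it, and Celsr1, Fbln1, Ccn3 and Fkbp11 lie furthest below.

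Most members did not pass in the tested comparisons. Their intervals cover only the spread between dishes under the scaling of the deposited values. They do not cover the choice of scaling or of clone. For the 52 members that did not pass in sg2, the log2 difference to sgControl ran from -0.09 to 0.23. For the 49 in sg3, it ran from -0.14 to 0.18. Between sg3 and sg2, the 55 members ran from -0.27 to 0.13. In each comparison the 95% interval of every one of them lay within 1.5-fold in either direction, the widest being 0.40 to each side on the log2 scale.

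Of the 13 members on no list, 9 lay between 0.3 and 0.9 in sg1. They were Nptxr, the neuronal pentraxin receptor (0.80), Washc5 of the WASH complex (0.69), Ano6, a lipid scramblase (0.63), Gxylt1, a xylosyltransferase that modifies Notch (0.57), Efr3a (0.63), Aaas of the nuclear pore (0.59), Prr13 (0.69), Myg1 (0.52) and Tmem184b (0.69). Kctd17 (-0.04) was the only one of the 13 that was not higher in sg1, and Them6 (1.28), Aqp5 (1.27) and H1f0 (1.37) lay above the band.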

How the data were processed

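RNA from 12 libraries, 3 each of sgControl, sg1, sg2 and sg3, was sequenced after stranded total RNA library preparation. The submitters' processing notes name Partek, STAR 2.7.8a and DESeq2, while the mouse genome build, annotation and counting tool are not given in the sources used here. The deposited values are a signal per gene, read from the values as estimated counts that the authors divided by 1 size factor per library: 79.9% to 85.1% of values under 100 reads were whole multiples of 1 step within 0.05 reads. Size factors move all genes of a library together. Estimated reads in the table were 1917222 to 2780834 per library, and the depth is unknown. Floors and bounds cover counting error only. Of 982 genes, 972 matched a symbol in GENCODE M21 and 10 did not. Gene order came from that release, which may differ from the build of the authors. Beyond the RefSeq windows, only the rough starts of Drosha and Fzd6 are therefore given. No column lacked a sample.

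Values were analysed as log2(value + 1) with limma 3.58.1 in R 4.3.3 (lmFit, intensity trend, robust eBayes), with 12 libraries and 4 groups in 1 fit and no filter. Tests were two-sided with Benjamini-Hochberg adjustment over 982 genes and a threshold of 0.05. Log2 differences understate the change of low genes. The table held part of the genes of a transcriptome, and the adjustment covers only those. The procedure was tested on simulated data. Tables were made with Python 3.11.15 and pandas 2.3.3. Named genes were the 10 largest and 5 smallest differences of sg1 to the mean of sg2 and sg3, members lower there, the 5 largest rises and falls in each tested comparison, the genes around Drosha, the last 2 members and up to 4 members of each of 9 functional lists by mean value. Other members were named after their values were seen. Members and lists were chosen with earlier results of these data known.

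Replicate numbers were checked by the correlation of deviations from group means. All 3 same-number pairs exceeded 0.1 between sgControl and sg1 (0.20 to 0.24), which were not tested, and between sgControl and sg2 (0.12 to 0.16). None did between sgControl and sg3 (-0.08 to -0.00383), 1 did between sg2 and sg3, and 2 did between sg1 and each of sg2 and sg3. The pairing in sg2 rests on these correlations, since no label ties a number to a day or batch. Alternatives were 3 other scalings, pseudocounts of 0.5 and 5, a filter at a mean of 50, a replicate block, a fit with neither trend nor robust spread and each library left out.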

Additional observations from a re-analysis of the deposited data

Results flagged for a closer look

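Of the distal chromosome 15 genes, 9 that led the calls between the sg3 and sg2 lines are listed because these lines differed in a direct test (limma, adjusted p of at most 0.05 over all genes). On the log2 scale, sg3 minus sg2 was -3.74 for Celsr1, -1.71 for Ccn3, -1.46 for Fkbp11 and -0.43 for Ly6c1. It was 1.52 for Mgat3, 0.57 for Aqp5 and 0.56 for Tst. The Tst call was lost when most single libraries of these lines were left out. The fitted values of -3.29 for Fbln1 and 7.29 for Kctd17 depend on the pseudocount, as one line was at the floor, and the bounds are 10.0-fold and 134-fold. Celsr1 and Mgat3 lay on opposite sides of sgControl in the 2 lines, in every library. Each line is 1 clone, so these differences cannot be assigned to a guide.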

How the results depend on the processing

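The count of members that passed in sg2 was 15 and became 24 with the total of the table as the scale, while the share of all genes that passed went from 59.7% to 61.7%. In sg3 it was 18 and became 28 with a median of ratios over genes not on chromosome 15 and 11 with neither intensity trend nor robust spread, where the share of all genes went from 59.9% to 57.7% and 55.5%, and the cause was not tested. Leaving out 1 library gave 13 to 18 in sg2 (46.2% to 62.3% of all genes), 9 to 22 in sg3 (46.0% to 63.3% of all genes; 9 and 49.7% without sgControl replicate 2) and 9 to 14 between sg3 and sg2 (26.4% to 31.2% of all genes).

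The median difference of sg1 to sgControl, 0.61, was 0.46 with a median of ratios over all genes, 0.63 over genes not on chromosome 15 and 0.40 with the table total, and 0.60 to 0.64 with 1 library left out. The table median moved from 0.20 to 0.05, 0.22 and -0.01 under the same scalings. Against the mean of sg2 and sg3, 0.62 became 0.49, 0.57 and 0.56, and 0.60 to 0.63 with 1 library left out. In sg2 the median of 0.04 became -0.00100, 0.0962 and -0.162 (0.0281 to 0.0476 with 1 library left out), and in sg3 the median of 0.02 became 0.110 over genes not on chromosome 15 and -0.0801 with the table total (-0.00799 to 0.0451 with 1 library left out). The table medians moved with them, to -0.0584, 0.0383 and -0.219 in sg2 and to 0.0609 and -0.129 in sg3. A scaling moves all genes of a library alike, and the turned signs are not particular to the members. Setting Kctd17 and Fbln1 to their bounds left them at 0.04 and 0.02. The sg1 libraries lay above sgControl for 61, 62 and 55 members under the 3 scalings, beside 42.5%, 50.7% and 33.4% of all genes, for 62 with each library of the 2 groups left out, and 62 members had a positive difference under each scaling.

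With the replicate block, 18, 23 and 17 members passed in sg2, sg3 and sg3 against sg2, beside 68.3%, 67.3% and 34.8% of all genes, and none of the 15, 18 and 12 was lost. Added were Deptor, Sun2, Gramd4, Arid2 and Atad2 (adjusted p = 0.193 without the block and 0.00392 with it) in sg3, and Fzd6, Tmem184b, Cyb5r3, Ano6 and Atad2 (0.475 and 0.0368) between sg3 and sg2. In the check of replicate numbers, no same-number pair of sgControl and sg3 exceeded the limit, and 1 pair of sg2 and sg3 did. That correlation cannot decide whether single genes follow the replicate number, since it is taken over many genes. Atad2 was lowest in replicate 2 and highest in replicate 3 in every group. Whether the added calls reflect a pairing of the libraries was not tested. Of the values of the leading members in tested comparisons, 552 kept their call under an alternative, 25 did not pass and 0 reversed. The depth of the libraries is unknown, and values at 1 to 3 reads carry no fold beyond a bound.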
